A study of Mus musculus with 8 samples.

Results

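The genes of the small nuclear, small nucleolar and other short structural RNAs were examined in DRIP-seq data of mouse embryonic fibroblasts (MEFs). DRIP-seq is the sequencing of DNA pulled down with S9.6, an antibody that binds RNA:DNA hybrids, and it maps R-loops, in which an RNA pairs with a strand of DNA and displaces the other. Members were all genes of the GENCODE M21 annotation (mm10) of type snRNA, snoRNA, scaRNA, misc_RNA or rRNA, each extended by 500 bp on both sides, and a gene was said to have a peak when a row of a peak list overlapped this window by at least 1 bp. There were 3857 such genes among 55450 annotated genes: 1383 snRNA, 1507 snoRNA, 51 scaRNA, 562 misc_RNA and 354 rRNA genes, with a median length of 118 bp. Of these, 2045 lay inside a protein-coding or long non-coding gene, their host, 1271 of them on the host's strand, and 1812 lay outside such genes. Most entries (3477) carried a numbered model name rather than an RNA's name, and many of these are diverged copies of an expressed gene.

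The RNAs of these genes work as parts of ribonucleoprotein machines. U1, U2, U4, U5 and U6 snRNAs form the spliceosome, in which U1 recognises the 5′ splice site, and U11 and U12 take the corresponding parts in the minor spliceosome. U7 serves histone pre-mRNA 3′ end processing, 5S rRNA is part of the large ribosomal subunit, 7SL RNA is the scaffold of the signal recognition particle, and 7SK RNA holds the elongation factor P-TEFb inactive. C/D box snoRNAs guide 2′-O-methylation and H/ACA box snoRNAs guide pseudouridylation of rRNA and snRNA, and scaRNAs do the same in Cajal bodies. Most vertebrate snoRNAs are not transcribed on their own but are cut from introns of host genes, many of which encode ribosomal proteins or translation factors, or non-coding RNAs such as *Gas5* and *Snhg1*. U6, 5S, 7SL and 7SK genes are transcribed by RNA polymerase III, and their RNAs, like U1, have given rise to many dispersed copies in mammalian genomes.

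All cells were the line Rtel1F/F;WT RNH1-GFP, whose *Rtel1* alleles are floxed and which carries a doxycycline-inducible RNase H1, the enzyme that degrades the RNA of RNA:DNA hybrids. Cells received an adenovirus with GFP (Ad-GFP, *Rtel1* kept) or with Cre (Ad-Cre, *Rtel1* deleted) for 48 h and then doxycycline (DOX) at 2 μg/ml or no doxycycline (mock) for 48 h, which gave a list without and a list with doxycycline for each virus: GFP mock and GFP DOX, then Cre mock and Cre DOX. Each list came from 1 library, pooled from 3 immunoprecipitations, and the 4 input libraries were not analysed here. No condition therefore has a replicate, no test between conditions was possible, and each difference below is a difference between libraries. The lists held 87613, 60219, 91097 and 105081 peaks, in this order of lists, which is kept below. A peak's score is 10 times the −log10 q that the peak caller gave it, rounded down. The depth is unknown and scores were not normalised between lists. For some comparisons a peak's percentile among the scores of its own list is given. Elsewhere raw scores are printed, and those of different lists are not on a common scale. The lists hold no expression values, so the labelled fibroblasts could not be checked against marker genes.

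Sequences of 2 sets of genes are given 5′ to 3′ from the mm10 reference, copies with some of the strongest peaks and snoRNAs of a pair of hosts described later. The first is U1. *Rnu1b1*, a named U1 gene at chr3:96359953-96360117 on the minus strand, is shown with the 9 bases that pair with the 5′ splice site in capitals. The 4 U1 copies below it are among the 5 with the best mean score percentile over the 4 lists, and their capitals mark bases that differ from *Rnu1b1* in a global alignment.
Rnu1b1: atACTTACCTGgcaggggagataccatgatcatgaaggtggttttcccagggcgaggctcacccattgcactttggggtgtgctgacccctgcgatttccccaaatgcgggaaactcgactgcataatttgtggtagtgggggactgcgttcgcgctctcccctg
Gm26110: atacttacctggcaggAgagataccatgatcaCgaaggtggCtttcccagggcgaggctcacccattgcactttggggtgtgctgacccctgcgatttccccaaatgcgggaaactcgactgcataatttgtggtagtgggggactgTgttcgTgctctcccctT
Gm23804: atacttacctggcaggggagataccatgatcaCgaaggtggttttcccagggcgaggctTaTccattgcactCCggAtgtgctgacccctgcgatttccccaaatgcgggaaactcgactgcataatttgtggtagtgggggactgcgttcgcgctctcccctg
Gm24830: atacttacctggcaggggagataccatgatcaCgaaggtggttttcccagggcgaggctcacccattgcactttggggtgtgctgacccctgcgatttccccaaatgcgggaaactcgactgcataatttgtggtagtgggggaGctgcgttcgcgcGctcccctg
Gm25682: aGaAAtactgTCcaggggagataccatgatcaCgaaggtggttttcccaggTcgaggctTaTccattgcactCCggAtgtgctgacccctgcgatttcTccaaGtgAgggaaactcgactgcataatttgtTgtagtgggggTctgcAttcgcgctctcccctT
*Gm26110* (chr1:171027965-171028129, plus strand) lies in an intron of *Fcgr4*, *Gm23804* (chr12:54714218-54714381, plus) and *Gm24830* (chr3:96328425-96328590, plus) lie between genes, and *Gm25682* (chr10:10100953-10101116, plus) lies in *Gm28905* and overlaps an exon of it. They kept 159, 158, 163 and 145 of the bases of *Rnu1b1*.

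The second set is C/D box snoRNAs of the hosts *Rpl13a* and *Gas5*. Capitals mark the first C box, searched as TGATGA, and the last D box, searched as CTGA, on the RNA's strand. Exact C box letters were not found in *Snord34*, *Snord35a* and *Gm22489*, where only the D box is in capitals.
Snord32a: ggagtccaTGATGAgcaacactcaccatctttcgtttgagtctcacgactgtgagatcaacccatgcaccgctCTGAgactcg
Snord33: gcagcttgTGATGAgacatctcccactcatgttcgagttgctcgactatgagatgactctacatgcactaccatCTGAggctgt
Snord34: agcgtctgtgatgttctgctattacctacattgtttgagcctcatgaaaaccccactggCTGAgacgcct
Snord35a: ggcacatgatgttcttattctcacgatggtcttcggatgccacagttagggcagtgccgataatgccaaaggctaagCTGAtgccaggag
Gm26224: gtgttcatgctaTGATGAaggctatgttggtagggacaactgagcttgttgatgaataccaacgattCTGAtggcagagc
Gm22489: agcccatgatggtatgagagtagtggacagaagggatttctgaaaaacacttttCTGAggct
Gm22357: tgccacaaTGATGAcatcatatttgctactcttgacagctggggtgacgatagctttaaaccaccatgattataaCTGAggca
The first 4 are the snoRNAs of *Rpl13a*, the gene of a ribosomal protein of the large subunit (chr7:45127382-45127464, chr7:45126864-45126947, chr7:45126601-45126670 and chr7:45126346-45126435, all minus strand). The last 3 lie in *Gas5* (chr1:161035394-161035473, chr1:161035850-161035911 and chr1:161036057-161036139, all plus strand). A C box followed by a D box was present in 106 of 161 single C/D box snoRNA genes (65.8%), in 3 of 296 single H/ACA box genes (1.01%) and in 10.5% of all 3857 genes. C/D box genes with both boxes had a peak in 17.0%, 32.1%, 55.7% and 49.1% of cases and those without in 14.5%, 32.7%, 47.3% and 49.1%.

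Short RNA genes had a peak more often than stretches of the genome of the same length in each list. A peak was present at 404 genes in GFP mock (10.5%, 95% exact binomial interval 9.53 to 11.5), against 4.84% of 2368117 genome tiles of the median window length, 1118 bp. In GFP DOX there were 315 genes (8.17%, 7.32 to 9.08) against 3.53% of tiles. In Cre mock there were 522 genes (13.5%, 12.5 to 14.7) against 5.32% of tiles, and in Cre DOX 451 genes (11.7%, 10.7 to 12.7) against 7.36% of tiles. Cre mock had the highest share of genes although Cre DOX had the longest list and the highest share of tiles. The intervals cover counting error only, treat genes as separate draws although neighbours can share a peak, and do not cover the spread between libraries. With peaks of the top decile of scores, the set the study worked with, 162, 130, 193 and 123 genes had a peak, against 0.546%, 0.425%, 0.654% and 1.05% of tiles, which correspond to 4.20%, 3.37%, 5.00% and 3.19% of the genes. The 2202 annotated miRNA genes, another class of short genes, had a peak in 12.2%, 11.1%, 15.6% and 12.9% of cases. A peak was present at 813 short RNA genes in at least 1 list (21.1%), at 146 in all 4 lists, and at 3044 in none.

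**Figure D1:**
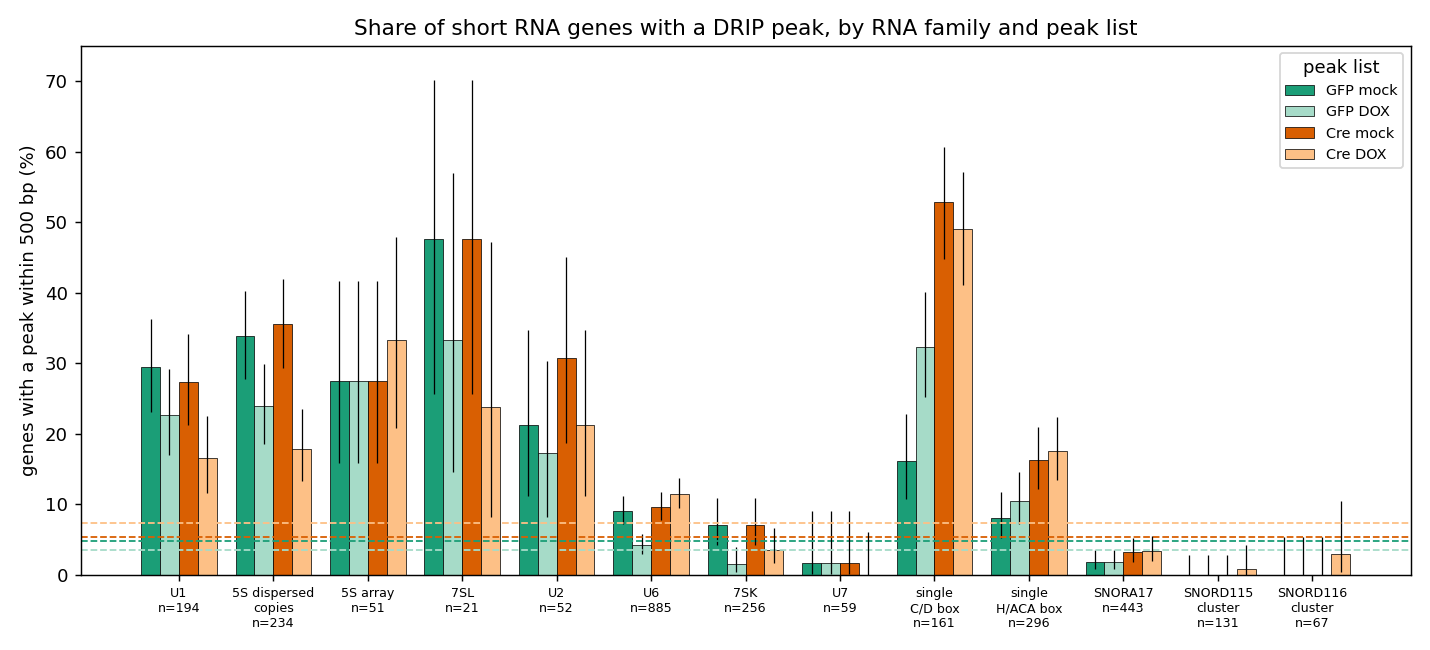
Share of genes of each RNA family with a peak within 500 bp (y axis, percent) in the 4 peak lists, with 95% exact binomial intervals and the number of genes under each name. Dashed lines give the share of genome tiles with a peak in the list of that colour. U1 and dispersed 5S copies were at 29.4% and 33.8% in GFP mock and at 16.5% and 17.9% in Cre DOX, while single C/D box snoRNA genes were at 16.1% in GFP mock and 52.8% in Cre mock.

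The gene types differed in level and in order over the lists. rRNA genes, mostly 5S copies, had a peak in 28%, 20.9%, 28.2% and 17.5% of cases, snRNA genes in 12.1%, 7.09%, 12.5% and 11.1%, misc_RNA genes in 8.36%, 4.8%, 10.3% and 7.12%, snoRNA genes in 5.64%, 7.43%, 12.2% and 12.5%, and scaRNA genes in 5, 4, 7 and 6 of 51 cases. Thus rRNA, snRNA and misc_RNA genes had fewer peaks in each DOX list than in its mock list, and snoRNA genes had more in GFP DOX than in GFP mock and similar numbers in the Cre lists. Hosted and other snoRNA genes differed: 54, 92, 158 and 148 of 879 hosted snoRNA genes had a peak, against 31, 20, 26 and 41 of 628 others. Hosted snRNA genes had a peak in 71, 46, 83 and 62 of 605 cases and others in 97, 52, 90 and 92 of 778. Over all types, hosted genes had a peak in 9.78%, 9.78%, 16.5% and 13.6% of cases, against 4.25%, 3.29%, 5.63% and 5.58% of tiles inside such genes. Other genes had a peak in 11.3%, 6.35%, 10.2% and 9.49% of cases, against 5.31%, 3.71%, 5.08% and 8.74% of tiles outside them. The difference between hosted and other genes was −1.48, 3.43, 6.27 and 4.15 percentage points. Nearness to a promoter moved with it: 516 windows touched the 1 kb either side of a start site of a protein-coding or long non-coding gene, and 18.4%, 22.9%, 36.4% and 33.7% of them had a peak, against 9.56%, 8.69%, 13.7% and 9.85% of tiles that touch such a stretch. Without these genes the difference between hosted and other genes was −3.26, −0.0553, 1.18 and −1.30 percentage points.

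U1 genes carried some of the strongest peaks. Of 194 U1 genes and copies, 57, 44, 53 and 32 had a peak (29.4%, 22.7%, 27.3% and 16.5%), with a median best score of 45.0, 40.0, 74.0 and 27.5, at median percentiles of 96.1, 96.7, 98.9 and 84.1 of each list. The highest in the first 3 lists was at *Gm23804*, with scores of 366, 361, 265 and 53 and an enrichment over input of 16.6-, 16.5-, 13.3- and 4.93-fold as the caller gave it. *Gm22042* (chr4:51812483-51812647) had 208, 32, 190 and 61, and *Gm25682* with 201, 98, 185 and 42. In raw score, both were lower in each DOX list than in its mock list, whereas *Gm26110*, the highest in Cre DOX, scored 128, 132, 149 and 84. Peaks lay over the copy itself in 52 of 57, 41 of 44, 51 of 53 and 28 of 32 cases. Their median width was 261, 209, 337 and 317 bp, against 295, 351, 343 and 513 bp over each whole list. The peaks were displaced towards the 5′ side of the RNA. Of those over a copy, 48 of 52, 37 of 41, 46 of 51 and 25 of 28 had midpoints upstream of the centre. Coverage by peaks was highest 100 to 150 bp upstream of the centre, at 26.8%, 20.6%, 25.8% and 14.9% of U1 genes, and 1000 bp downstream it was 0, 0, 1.55% and 1.03%.

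Dispersed 5S copies gave the same picture. Of 234 copies outside the chromosome 8 array, 79, 56, 83 and 42 had a peak (33.8%, 23.9%, 35.5% and 17.9%). Their median best scores were 41.0, 38.0, 45.0 and 28.5, at median percentiles of 94.9, 96.2, 96.0 and 86.0 of each list. The peak lay over the copy in 77 of 79, 55 of 56, 82 of 83 and 38 of 42 cases, and its midpoint was upstream of the copy's centre in 75 of 77, 50 of 55, 74 of 82 and 32 of 38 of these. The 3 copies with the best mean score percentile were *Gm26381*, in an intron of *Lsamp*, *n-R5s33*, in an intron of *Lrch3*, and *n-R5s68*, between genes. *n-R5s68* scored 233, 158, 160 and 64, *Gm26381* 201, 131, 174 and 104, and *n-R5s33* 166, 122, 172 and 52. In raw score, each of the 3 was lowest in Cre DOX. Median widths were 189, 178, 200 and 280 bp, against 295, 351, 343 and 513 bp over each whole list.

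**Figure D2:**
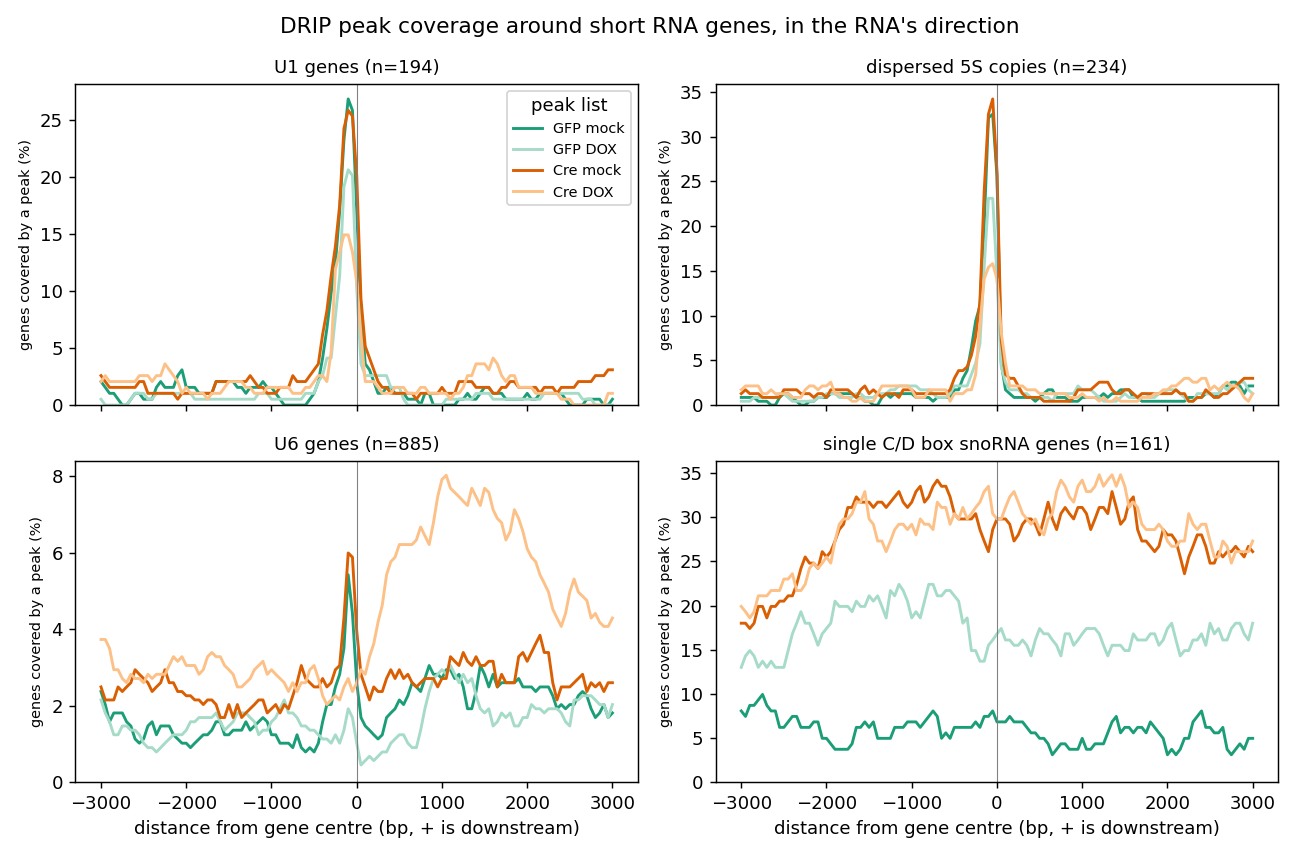
Percent of genes covered by a peak (y axis) at each distance from the gene's centre (x axis, bp, positive downstream) for U1 genes, dispersed 5S copies, U6 genes and single C/D box snoRNA genes in the 4 lists. U1 and 5S coverage forms a narrow spike just upstream of the centre, U6 coverage has a small spike in the 2 mock lists and a broad rise downstream in Cre DOX that reaches 8.02% at 1050 bp, and C/D box coverage is broad, with GFP mock lowest.

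How often a copy had a peak moved with its likeness to the named gene. Among U1 copies aligned over at least 80% of *Rnu1b1*, 14, 9, 13 and 3 of 88 under 85% identity had a peak (15.9%, 10.2%, 14.8% and 3.41%), against 29, 29, 30 and 21 of 41 at 85% or more (70.7%, 70.7%, 73.2% and 51.2%). All 8 copies of 85 to 90% identity had a peak in GFP mock and in Cre mock. At 98% and above the share was lower again, at 2, 3, 3 and 2 of 8. Dispersed 5S copies at 85% or more to *Rn5s*, a named 5S gene of the array, had a peak in 32, 30, 33 and 22 of 41 cases and those under 85% in 10, 2, 9 and 6 of 23. Median scores of U1 peaks went from 33.0 at 80 to 85% identity to 131 at 95 to 98% in GFP mock, from 38.0 to 61.0 in GFP DOX, from 42.5 to 138 in Cre mock and from 17.5 to 53.0 in Cre DOX. At 98% and above, with 2 or 3 peaks a list, they were 172, 32, 148 and 57.5. U1 copies that still held the splice site bases ACTTACCTG had a peak in 29, 27, 31 and 19 of 55 cases (52.7%, 49.1%, 56.4% and 34.5%), and those without in 20.1%, 12.2%, 15.8% and 9.35%. These letters were in 58 of all 3857 genes (1.5%). *Gm25682* lacks them.

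**Figure D3:**
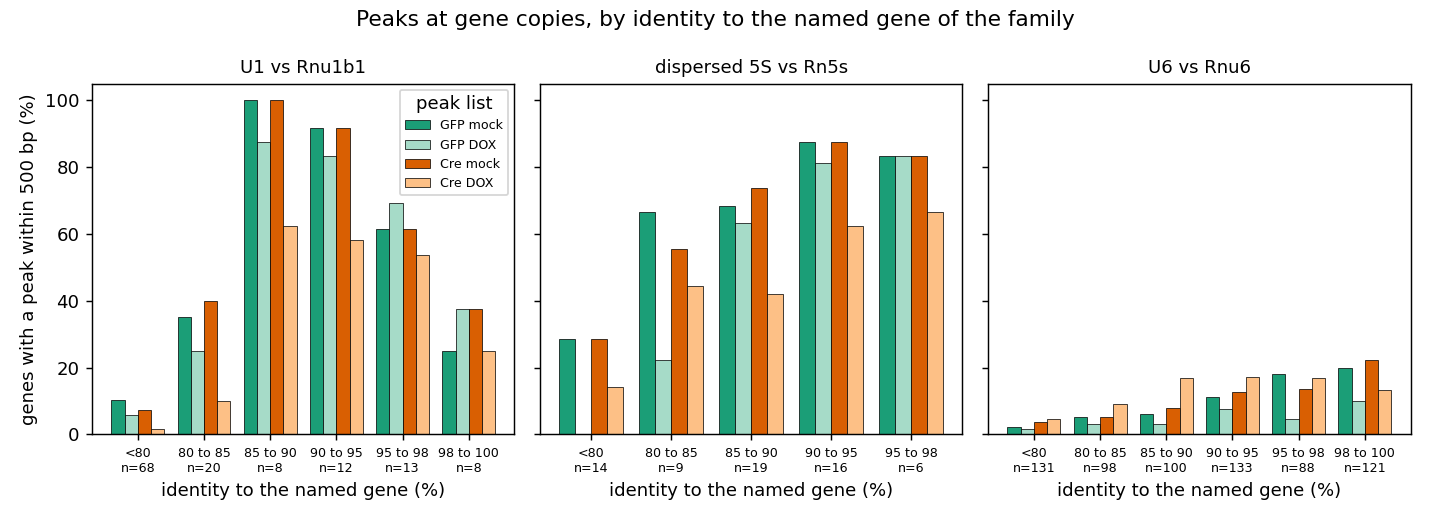
Percent of U1, dispersed 5S and U6 copies with a peak within 500 bp (y axis) by identity to *Rnu1b1*, *Rn5s* or *Rnu6* (x axis, percent, with the number of copies), for copies aligned over at least 80% of the named gene. U1 copies go from 10.3% under 80% identity to 100.0% at 85 to 90% in GFP mock and back to 25% at 98% and above. U6 copies stay at 22.3% or below.

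The uniqueness of the sequence differed along the same axis. The measure used was the share of 100-base stretches touching a gene that occur once in the chromosomes. For U1 copies its median was 100.0% up to 95% identity, 71.9% at 95 to 98% and 0 at 98% and above. The named genes *Rnu1b1* and *Rnu1b2* are in the last group: *Rnu1b1* had a peak of score 18 in Cre mock alone and *Rnu1b2* a peak of score 13 in GFP DOX alone, both beside the gene and not over it. How reads of identical copies were placed was not given in the sources used here, and the part of uniqueness in these shares was not tested. Among genes whose sequence was wholly unique by this measure, 10.1%, 7.83%, 13.4% and 11.4% had a peak, close to the shares over all genes.

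The 5S array was different. It comprised 51 5S genes at chr8:123538786-123623745, spaced by a median of 1697 bp within the large annotated gene *Gm20388* and on the strand opposite to it. A peak was present at 14, 14, 14 and 17 of them, at 11 in all 4 lists, with median best scores of 270.0, 314, 172 and 155. Peaks of the array lay at 99.7 or above in median percentile in each list. Unlike at dispersed copies, few lay over a 5S gene: of 14, 14, 13 and 14 peaks within the array, 2, 2, 4 and 2 touched a gene. The signed offset of the midpoints from the nearest gene's centre, positive downstream, had medians of 409, 392, 389 and 400 bp. Midpoints lay downstream of that centre in 10, 9, 8 and 10 cases. *n-R5s101* had a peak over the gene, with scores of 537, 434, 502 and 134. *n-R5s106* had one beside it, with 475, 333, 126 and 152, as did *n-R5s122*, with 291, 523, 351 and 404, and *Gm24089*, with 368, 646, 403 and 223. In raw score, the order of the lists thus differed from gene to gene, while the array's median percentiles were 99.9, 99.9, 99.7 and 99.9. None of the 51 genes was wholly unique over 100 bases and 38 had no unique stretch at all. *Rn5s* itself had no peak within 500 bp in any list.

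U6 genes, the largest family, had peaks less often than U1 and 5S copies in each list. Of 885, 80, 37, 85 and 101 had a peak (9.04%, 4.18%, 9.60% and 11.4%, against the 4.84%, 3.53%, 5.32% and 7.36% of tiles), with median best scores of 19, 18, 22 and 19. The peak lay over the gene in 43, 15, 56 and 32 cases, fewer in each DOX list than in its mock list. In the mock lists a small spike lay at the gene: 5.42% of U6 genes in GFP mock and 5.99% in Cre mock were covered 100 bp upstream of the centre, against 1.92% in GFP DOX and 2.71% in Cre DOX. In both DOX lists the coverage was highest downstream of the gene, at 3.05% in GFP DOX 1100 bp away and at 8.02% in Cre DOX 1050 bp away. At 1050 bp 71 of 885 genes were covered in Cre DOX, against 26, 25 and 24 in the other 3 lists. Of the peaks there, 22 of 26, 19 of 25, 16 of 24 and 61 of 71 were more than 50% repeat-masked, with medians of 94.4%, 97%, 95.8% and 97.6%, and of the 71 Cre DOX genes 5 were also covered at their centre. Peaks covered 1.33%, 1.18%, 1.75% and 3.27% of the chromosomes, and 1.80%, 1.61%, 2.65% and 3.9% of the positions 2 to 3 kb from U6 genes. The part of repeats in the downstream coverage was not tested. *Gm24978* (chr4:16675923-16676029), 100.0% identical to *Rnu6*, had the highest-scoring peak present in Cre mock alone, with a score of 101.

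The other families with dispersed copies were smaller. Of 21 7SL genes and copies, 10, 7, 10 and 5 had a peak, and of these 9, 7, 9 and 5 lay over the gene with scores up to 121, 86.0, 239 and 48.0, all 4 at *Gm26461* (chr9:88553236-88553525). The named gene *Rn7s2* scored 75, 32 and 50 in the first 3 lists and had no peak in Cre DOX. *Rn7s6* scored 49 and 111 in the 2 mock lists alone, and *Rn7s1* 23 in Cre mock alone. Of 52 U2 genes, 11, 9, 16 and 11 had a peak. *Rnu2-10* scored 19 in GFP mock, Cre mock and Cre DOX, with a peak over the gene in Cre DOX alone. U4 genes had a peak in 5, 2, 4 and 0 of 11 cases and U5 genes in 6, 2, 7 and 0 of 11, where 0 of 11 allows a share of up to 28.5%. For both, the DOX list had fewer than its mock list in each genotype. *Rnu5g* scored 13 and 16 in the mock lists. 7SK copies had a peak in 18, 4, 18 and 9 of 256 cases, or 7.03%, 1.56%, 7.03% and 3.52%, against 4.84%, 3.53%, 5.32% and 7.36% of tiles, and the exact intervals of 4.22 to 10.9, 0.427 to 3.95, 4.22 to 10.9 and 1.62 to 6.57 held the tile share in each list but Cre DOX. The gene *Rn7sk* had none in any list. U12 genes had a peak in 4, 1, 1 and 1 of 6, none over the gene, and *Rnu12* scored 20, 17, 16 and 26. *Rnu11* had a peak of score 12 in Cre DOX alone, and *Rnu7*, inside *Grcc10*, scored 18 in GFP DOX and 24 in Cre mock, the latter over the gene within a peak of 6501 bp. U7 copies had a peak in 1, 1, 1 and 0 of 59 cases. *Rnu6* scored 20 in GFP mock and 22 in Cre DOX. Y RNA genes had a peak in 2, 0, 0 and 1 of 22 cases, *Rny1* and *Rny3* not among them, and the 2 vault RNA genes had none. *Rnu1a1* in *Tex14* scored 43, 30 and 35 and had none in Cre DOX, and U3 snoRNA genes (*Rnu3a*, *Rnu3b1*, *Rnu3b3*, *Rnu3b4*) had peaks in the Cre lists alone, with scores of 13 to 30. Each of these U3 genes is annotated under 2 overlapping identifiers, and both were counted.

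Single C/D box snoRNA genes, those outside the large SNORD113 to SNORD116 clusters, behaved otherwise. Of 161, 149 were hosted, 146 on the host's strand, and 114 had a window within 1 kb of a start site. A peak was present at 26 in GFP mock (16.1%, 10.8 to 22.8), 52 in GFP DOX (32.3%, 25.2 to 40.1), 85 in Cre mock (52.8%, 44.8 to 60.7) and 79 in Cre DOX (49.1%, 41.1 to 57.1). All 26 genes of GFP mock also had a peak in Cre mock, and 59 had one in Cre mock and not in GFP mock. Peaks were wide, with medians of 368, 910, 1010 and 728 bp, and served several genes: 21, 36, 56 and 54 peaks covered the 26, 52, 85 and 79 genes. Scores were moderate, with median percentiles of 34.8, 62.1, 80.6 and 83.0. Midpoints showed no preferred side, with 5, 13, 29 and 25 upstream of the gene's centre and 7, 14, 21 and 26 downstream among the peaks over a gene. Peaks also covered other stretches of the hosts. Over the 77 host genes, 5.90%, 16.7%, 27.8% and 28.5% of the bases in snoRNA windows were covered, against 1.80%, 3.53%, 6.01% and 5.78% of the rest of the same hosts. Near start sites the values were 8.64%, 25.1%, 36.5% and 40.3% in windows and 5.55%, 11.8%, 17.7% and 15.5% in the rest, and farther away 1.54%, 3.47%, 13.9% and 9.69% against 1.11%, 2.02%, 3.86% and 3.98%. Of 114 C/D box genes near a start site 19.3%, 41.2%, 67.5% and 58.8% had a peak, and of 47 farther away 8.51%, 10.6%, 17.0% and 25.5%. In each of these parts of the hosts coverage was lowest in GFP mock, next in GFP DOX and highest in the Cre lists, while the order of Cre mock and Cre DOX was opposite in the windows and in the rest of the hosts.

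**Figure D4:**
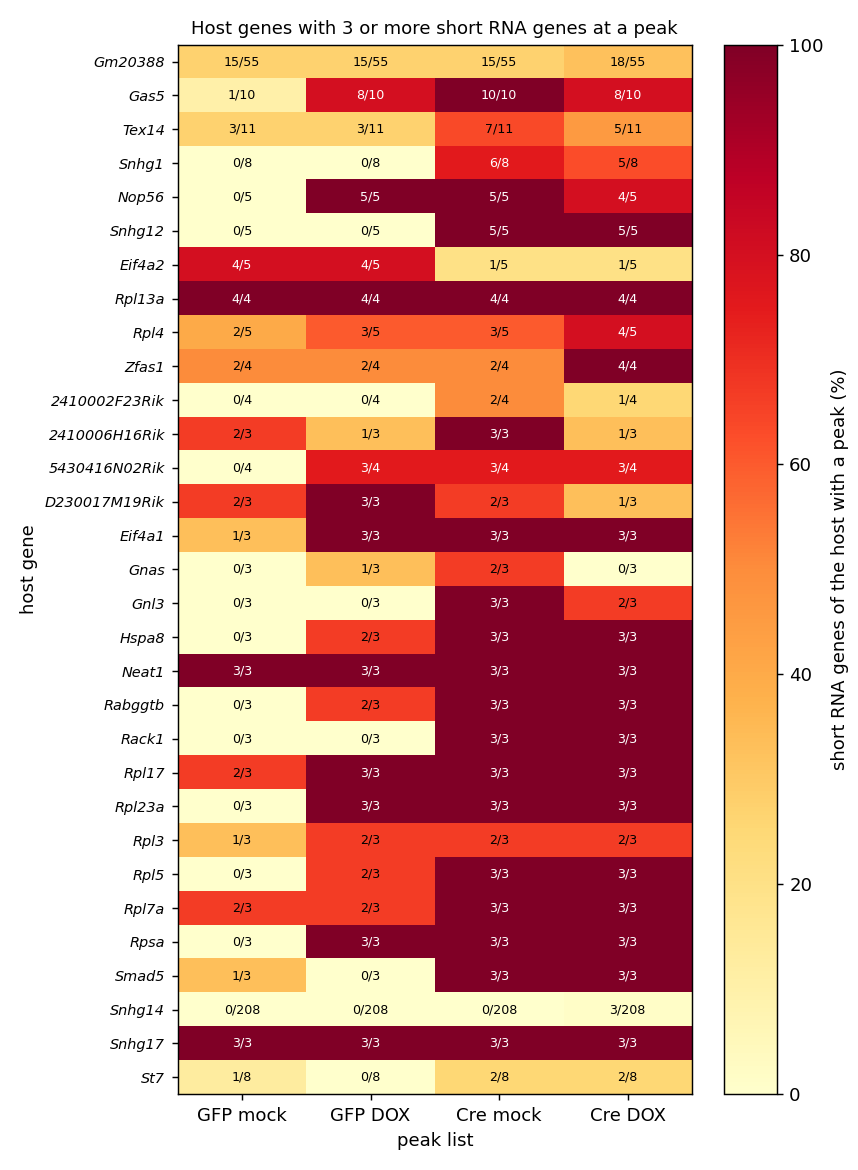
Reported host genes with at least 3 short RNA genes at a peak in any list (rows), with the number of their short RNA genes that had a peak in each list (columns) out of all inside the host, and the colour giving the percent. *Rpl13a*, *Neat1* and *Snhg17* are full in all 4 lists, and *Gas5*, *Nop56*, *Hspa8*, *Rpl23a* and *Rpsa* are at 0 or 1 gene in GFP mock and higher in the other lists.

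Single hosts differed in their order of lists. In *Gas5*, a non-coding snoRNA host, 1, 8, 10 and 8 of 10 short RNA genes had a peak, the best with scores of 12, 22, 63 and 51 at percentiles of 1.69, 77.7, 98.4 and 98.7. In GFP DOX, Cre mock and Cre DOX it was a single peak of 3109, 3379 and 3381 bp that reached 8 of the 10 genes, the 3 printed above among them, while the GFP mock peak of 724 bp reached *Gm26224* alone. In *Rpl13a* all 4 snoRNA genes shown above had a peak in each list, at 15, 19, 28 and 27 for *Snord33*, whose width was 1153, 1613, 4909 and 6033 bp. In *Nop56*, which encodes a core protein of C/D box particles, 0, 5, 5 and 4 of 5 had a peak. *Snhg1* (0, 0, 6 and 5 of 8), *Snhg12* (0, 0, 5 and 5 of 5), *Rack1* (0, 0, 3 and 3 of 3) and *Gnl3* (0, 0, 3 and 2 of 3) had none in either GFP list. *Hspa8* had 0, 2, 3 and 3 of 3 and *Rpl23a* and *Rpsa* each 0, 3, 3 and 3 of 3. *Snord2* in *Eif4a2*, a translation initiation factor gene, scored 23, 49, 96 and 80. Other hosts had another order: 2, 1, 3 and 1 of the 3 genes in *2410006H16Rik* had a peak, and 2, 3, 2 and 1 of the 3 in *D230017M19Rik*. In *Eif4a2* the H/ACA gene *Snora81* and its neighbours *Gm26447* and *Gm24616* scored 15 and 14 in the GFP lists and had no peak in the Cre lists. *Snord58b* in *Rpl17* had the highest score of a hosted snoRNA gene in the first 3 lists, with 95, 111, 128 and 58, in a peak that also reached its neighbour *Gm23301*.

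A fixed list of 40 known snoRNA hosts shares many genes with the C/D box set and is not independent of it. Of these, 36 held an annotated short RNA gene, 327 in all, of which 208 lie in *Snhg14*, the host of SNORD115 and SNORD116. A peak at a short RNA gene was present in 11, 20, 25 and 25 of the 36 hosts, at 19, 51, 69 and 69 of the 327 genes (5.81%, 15.6%, 21.1% and 21.1%). The 208 genes in *Snhg14* lower these shares, with 0, 0, 0 and 3 at a peak. Of the 36 hosts, 10 had a peak at a short RNA gene in all 4 lists, 7 in each list but GFP mock, and 6 in none. Hosts without one included *Rian* with 13 genes, *Meg3* with 2 and *Snhg5* with 2, and *Taf1d* had 1 of 8 in Cre DOX alone.

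H/ACA box snoRNA genes were intermediate and the clustered families were nearly without peaks. Single H/ACA genes had a peak in 24, 31, 48 and 52 of 296 cases (8.11%, 10.5%, 16.2% and 17.6%). SNORA17, of which most of the 443 entries are unhosted copies, had 8, 8, 14 and 15 (1.81%, 1.81%, 3.16% and 3.39%), below the share of genome tiles in each list. SNORD115, with 131 genes, had none in the first 3 lists and 1 in Cre DOX, and SNORD116, with 67, had none in the first 3 and 2 in Cre DOX, so that exact upper limits of the share in the first 3 lists were 2.78% and 5.36%. The 12 SNORD113 and SNORD114 genes had none. SNORD115 and SNORD116 genes had median unique shares of 38.2% and 32.6% by the measure above, and the SNORD113 and SNORD114 genes 100.0%. Of scaRNA genes, *Scarna6* in *Atg16l1* scored 24 in GFP mock alone, *Gm23386* 22, 32, 33 and 26, *Gm22442* in *Chd3* 19, 20, 28 and 16, *Gm26413* in *Fbf1*, annotated under 2 identifiers, 22, 45, 20 and 11, and *Gm26083* in *Snhg20* 14 and 23 in the Cre lists. The 3 misc_RNA models inside *Neat1*, the RNA scaffold of paraspeckles, shared wide peaks, with *Gm27533* at 18, 29, 62 and 57.

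Fewer of the mock peaks at short RNA genes than of all mock peaks lacked a counterpart after doxycycline in the GFP pair, and a similar share in the Cre pair. Of 393 GFP mock regions, 194 (49.4%, 44.3 to 54.4) had no overlapping peak in GFP DOX, against 69.4% of all GFP mock peaks. Of 481 Cre mock regions, 232 (48.2%, 43.7 to 52.8) had none in Cre DOX, against 51.3% of all. In the other direction 33.1% of GFP DOX regions had no GFP mock peak, against 57.0% of all GFP DOX peaks, and 38.1% of Cre DOX regions had no Cre mock peak, against 63.6% of all. Short RNA regions held higher scores than the list as a whole, and among top-decile regions 27.6% and 34.7% had no DOX peak, against 50.3% and 43.8% of all top-decile peaks. The families differed widely. U1 regions were absent in 15 of 57 cases after DOX in GFP cells (26.3%) and 25 of 53 in Cre cells (47.2%), and dispersed 5S regions in 31 of 80 (38.8%) and 50 of 84 (59.5%). U6 regions were absent in 70.7% and 60.0% of cases and 7SK regions in 83.3% and 83.3%. C/D box regions were absent in 7 of 21 (33.3%) and 11 of 56 (19.6%), and array regions in 0 of 13 and 1 of 14.

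Where a gene had a peak both without and with DOX, its score could be followed. U1 genes scored lower in GFP DOX than in GFP mock in 31 of 42 cases, with median scores of 60.5 and 40.0 and median enrichments of 5.73- and 4.86-fold. Their median percentiles, close to the upper limit of that scale, were 98.2 and 96.7, with a median change of −0.252 points. They scored lower in Cre DOX than in Cre mock in 24 of 28 cases, with median percentiles of 99.4 and 90.5 and a median change of −3.73 points. Dispersed 5S copies scored lower in 37 of 49 GFP cases, with median percentiles of 98.6 and 97.5 and a median change of −0.560 points, and in 33 of 34 Cre cases, with median percentiles of 98.7 and 86.9 and a median change of −7.95 points. C/D box genes scored lower with DOX in 7 and higher in 15 of 23 GFP cases, with median percentiles of 27.2 and 65.0. In the Cre pair 43 of 70 scored lower and 25 higher with DOX, but their median percentile was 82.7 and 84.1, so that scores and percentiles differed in direction. Of all short RNA genes with a peak in both lists, 121 of 216 scored lower in GFP DOX and 192 of 290 in Cre DOX, where the scores of the lists themselves also differ, with medians of 18, 17, 19 and 18. These totals include the families above, and the same share was not computed over all peaks.

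**Figure D5:**
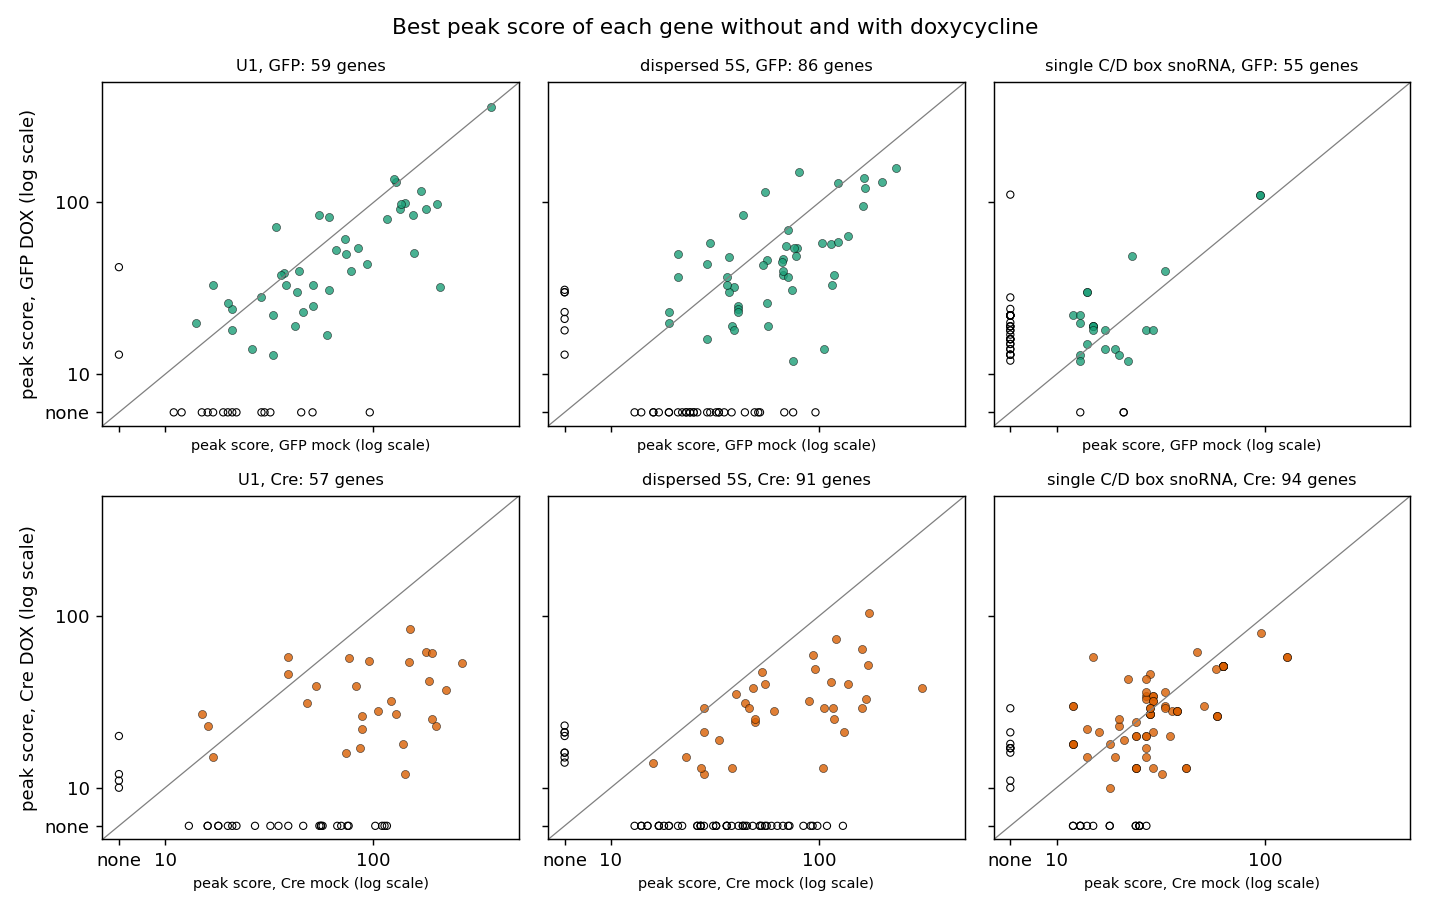
Best peak score of each U1, dispersed 5S and single C/D box snoRNA gene in the mock list (x axis, log scale) against the DOX list (y axis, log scale) of GFP (top) and Cre cells (bottom). Each point is a gene, open circles at "none" had a peak in 1 of the 2 lists only, and the line marks equal scores. U1 and 5S points lie mostly under the line in Cre cells (24 of 28 and 33 of 34 genes).

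Between the mock lists, GFP and Cre regions overlapped more at short RNA genes as a group than over the whole lists, but not in every family. Of 393 GFP mock regions, 36.1% (31.4 to 41.1) had no peak in Cre mock, against 61.5% of all GFP mock peaks, and of 481 Cre mock regions 47.2% (42.7 to 51.8) had none in GFP mock, against 64.8%. For U1 these shares were 24.6% and 18.9%, and for dispersed 5S copies 20.0% and 23.8%. U6 and 7SK regions were closer to the lists as a whole or above them, with 57.3% and 62.1% for U6 and 72.2% and 66.7% for 7SK. Of H/ACA box regions 37.5% and 68.2% had none. For C/D box regions 3 of 21 GFP mock regions had no Cre mock peak, but 36 of 56 Cre mock regions (64.3%) had no GFP mock peak. The 2 comparisons of each pair share their lists and are not independent.

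The regions themselves differed from their lists in repeat content and strength. Short RNA genes took 393, 284, 481 and 407 peaks, 0.449%, 0.472%, 0.528% and 0.387% of each list. Their median score percentile was 77.2, 80.8, 78.2 and 60.0, and 39.7%, 42.3%, 35.3% and 23.8% of them were in the top decile. The median share of repeat-masked bases was 28.3%, 21%, 21.8% and 32.3%, against 86.5%, 93.8%, 64.9% and 95.6% over all peaks. The G+C content was 46.7%, 46.7%, 47.0% and 45.3%, against 46.0%, 42.1%, 44.7% and 41.6%. A sequence predicted to form a G-quadruplex (G4Hunter, window 25, score at least 1.5) was present in 28.8%, 30.3%, 32.4% and 40.3% of regions, against 28.2%, 22.7%, 27.7% and 25.6% of all peaks. It was present in 15.8%, 13.6%, 20.8% and 28.1% of U1 regions and in 71.4%, 58.3%, 58.9% and 55.6% of C/D box regions, which were also the wider ones.

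The highest score at any short RNA gene in each list lay at a single rRNA gene. *CT010467.1* (chr17:39846353-39848827, minus strand, 2475 bp), annotated as rRNA, scored 1697, 1615, 1738 and 1445 with an enrichment of 7.35-, 6.98-, 7.07- and 6.12-fold, and its peak of 724, 722, 788 and 931 bp lay inside the gene. The other 9 of the 10 regions with the best mean percentile in all 4 lists were in the 5S array. Among genes with a peak in 1 list only, the highest scores in GFP mock were 51 at *n-R5s62*, 50 at *Gm25419* and 47 at the U11 copy *Gm22472*. In GFP DOX they were 42 at the U1 copy *Gm22317*, 40 at *Gm23175* and 37 at the U6 copy *Gm22003*, and in Cre mock 101 at *Gm24978*, 57 at *Gm26442* and 56 at both *Gm24526* and *Gm25949*, the last 3 being U1 copies. In Cre DOX they were 223 at *n-R5s136*, whose peak is shared with *Gm24089*, 62 at the U6 copy *Gm22260* and 33 at *Gm25312*, *Gm27401* and *n-R5s111*. A peak in 1 list only was found for 90, 24, 122 and 124 genes, in lists of 87613, 60219, 91097 and 105081 peaks. The share with a peak in 1 list only was not computed over all genes or tiles, so these counts have no baseline. The window rule cut close in some cases: in GFP mock *Gm25652* entered by 6 bp with a peak of score 36, and *n-R5s144* stayed out by 2 bp with a peak of score 677.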

How the data were processed

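DRIP-seq libraries of 4 conditions were analysed, and their 4 inputs were not analysed here. Genomic DNA was cut with 5 restriction enzymes, and DNA of 3 immunoprecipitations was pooled per library. The authors aligned reads to mm10 with BWA and called peaks with MACS2 in the nf-core/chipseq pipeline, per the labels and methods. The stated command asks for narrow peaks, whereas the files the authors deposited have MACS2's broad layout, without summits. Versions of BWA and MACS2 and the placing of multiply mapped reads are not given in the sources used here. The deposited lists give, for each peak, a score (10 times −log10 q, rounded down), a fold enrichment over input, and −log10 p and −log10 q. Depth is unknown.

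Gene windows (GENCODE M21 genes plus 500 bp) were intersected with all peaks (at least 1 bp) in Python 3.11.15 with numpy 2.4.6, pandas 2.3.3 and pysam 0.24.0. Exact Clopper-Pearson 95% intervals came from scipy 1.17.1. Sequences came from the RefSeq GRCm38.p6 genome, and identities from alignments to the named gene. RNA families were assigned by gene symbol, RefSeq product and sequence similarity (blastn 2.17.0). The counting steps were tested on simulated data. Genes were named by a rule: named spliceosomal, 7SL, 7SK, Y and related genes, the 10 regions best placed in all 4 lists, the 3 highest list-specific genes of each list, the highest gene of each type and host status, and hosts with 3 or more such genes at a peak; others were chosen after their values were seen. Alternatives changed the window, score threshold, number of peaks, overlap, repeat content, start sites, gene models and host strand. The members and lists were chosen with earlier results of these data known. With 1 library per condition no spread between samples could be measured. A host gene and 5S sequences are not reported here.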

Additional observations from a re-analysis of the deposited data

Results flagged for a closer look

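Among the 16 families of at least 50 genes, 3 had shares of genes with a peak that moved in opposite directions with doxycycline in the 2 genotypes. With 1 library per condition, the difference was not tested for any of them. Genome tiles with a peak moved in opposite directions too, from 4.84% in GFP mock to 3.53% in GFP DOX and from 5.32% in Cre mock to 7.36% in Cre DOX. U6 genes with a peak were fewer by 4.86 percentage points in GFP DOX than in GFP mock (difference -4.86) and more by 1.81 in Cre DOX than in Cre mock. Single C/D box snoRNA genes (other C/D) with a peak were more frequent by 16.1 percentage points in GFP DOX than in GFP mock, and the Cre DOX minus Cre mock difference was -3.73. The remaining snoRNA genes, which were assigned to no box class, differed by -1.36 percentage points in the GFP pair and 1.36 in the Cre pair, changes of the same direction as those of the tiles. The U6 changes also had the direction of the tiles, and the C/D box changes the opposite one. Opposite directions were not seen when only peaks over the gene itself were counted: these went from 43 to 15 U6 genes in GFP and from 56 to 32 in Cre, from 12 to 27 and from 50 to 51 C/D box genes, and from 15 to 9 and from 17 to 16 of the remaining snoRNA genes.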

How the results depend on the processing

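Values are given for the 2 GFP lists and then the 2 Cre lists, mock before DOX. The share of short RNA genes with a peak was 6.97%, 5.16%, 9.44% and 6.20% over the gene alone, 13.7%, 10.1%, 16.6% and 15.5% with 1000 bp each side, and 4.20%, 3.37%, 5.00% and 3.19% with top-decile peaks. It was 8.76%, 8.17%, 11.2% and 8.01% with the best 60219 peaks of each list, 9.20%, 6.27%, 10.5% and 7.80% by peak midpoint, and 7.23%, 6.20%, 10.8% and 7.73% with peaks at most 50% repeat-masked. Without genes near a start site it was 9.25%, 5.90%, 10.00% and 8.29%, and without predicted models 27.4%, 26.6%, 43.7% and 34.5%. Cre mock was highest under each of these settings. Taking 1 gene per group of overlapping windows, an alternative chosen after seeing the data, gave 12.2% in Cre mock and 10.5% in Cre DOX. Regions numbered 259, 179, 322 and 203 over the gene alone and 156, 120, 170 and 97 with top-decile peaks. The share of mock regions without a DOX peak was 42.3% (GFP) and 61.8% (Cre) with top-decile peaks in both lists, 60.3% and 61.1% when at least 50% of the mock peak had to be overlapped, and 54.5% in Cre with equal numbers of peaks. The share over all peaks was not computed under these settings, so the GFP and Cre values cannot be set against their lists. In GFP DOX, Cre mock and Cre DOX, the difference of hosted minus other genes was indistinguishable from 0 without genes near a start site. It was -0.0553 percentage points in GFP DOX (95% interval -1.66 to 1.56) and 1.18 in Cre mock (-0.855 to 3.24). In Cre DOX it was -1.30 (-3.17 to 0.581). In GFP mock it was -3.26 (-5.21 to -1.30), an interval without 0, against -1.48 (-3.44 to 0.458) with these genes kept. In GFP DOX the difference was 1.09 (-0.315 to 2.49) over the gene alone and 0.736 (-0.418 to 1.88) with top-decile peaks, intervals that hold 0. In Cre mock and Cre DOX it was 3.23 and 2.11 over the gene alone and 1.53 and 1.75 with top-decile peaks, with intervals above 0. With same-strand hosts it was 8.99 in Cre mock and 7.19 in Cre DOX. For snoRNA genes only, also chosen after seeing the data, it was 1.21, 7.28, 13.8 and 10.3. The causes of these shifts were not tested. In all, 16 alternative values, some of them printed above, moved by less than their interval or, for a count, by less than 1.5 times.

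No paired analysis was possible because each condition has a single library. The depth behind the lists is unknown, so a missing peak does not show that a gene was free of signal.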
